A study of Mus musculus with 12 samples.

Results

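Replication-dependent histone genes encode the core histones H2A, H2B, H3 and H4 and the linker histone H1 that package newly copied DNA. The members described here were the protein-coding genes of GENCODE M21 on GRCm38 whose names start with Hist1h, Hist2h, Hist3h or Hist4h, 67 of 21951 protein-coding genes. They comprised 6 H1, 18 H2A, 18 H2B, 12 H3 and 13 H4 genes. The genes are transcribed mainly in S phase, lie in clusters, mostly lack introns, and give mRNAs that end in a conserved stem-loop in place of a poly(A) tail. Progenitors of the embryonic forebrain divide rapidly and draw on this gene set, whereas cells that have left the cycle rely more on replication-independent variants. H3K4me3, the trimethylation of histone H3 at lysine 4, marks active and poised promoters.

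H3K4me3 was profiled by CUT&Tag, in which an antibody directs a transposase to marked chromatin, in wild-type C57BL/6J mouse embryos. Tissue was dissected from the medial, lateral and caudal ganglionic eminences (MGE, LGE and CGE), where GABAergic neurons are born, and from the cortex (CTX). The embryos were at embryonic day 12.5, and the protocol among the labels names day 14.5 as well without saying for which tissue. There were 12 libraries from 2 replicates per region, 3 for MGE, 2 for LGE, 4 for CGE and 3 for CTX, which the authors merged into 1 peak list per region. The protocol describes mixing equal numbers of nuclei of the 4 regions before dilution although every library is labelled with 1 region, and tissue of several embryos was pooled. With 1 list per region, differences between regions had no replicate check and no test was made. The intervals given below cover only the counting of genes, and neighbouring genes that share a peak are not independent.

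Where 4 values follow one another below, they stand in the order MGE, LGE, CGE, CTX. The numbers of peaks were 25339, 17284, 17752 and 21442, and the median widths over whole lists 563, 1168, 1240 and 701 bp, so wide and narrow lists differed before any gene was chosen. The lists also differ in depth: per the paper, both CGE replicates were sequenced more deeply than either MGE replicate. Both LGE replicates were sequenced less deeply than the second CTX replicate, so depth and width did not follow the same order over all regions. The part of depth in peak widths and numbers was not tested. The MGE markers Nkx2-1, Lhx6 and Lhx8 had peaks in MGE, LGE and CGE and none in CTX. All LGE and CGE markers (Ebf1, Isl1, Gsx2, Nr2f2, Nr2f1 and Sp8) and 3 of 5 cortical markers (Emx1, Emx2 and Tbr1) had a peak in all 4 lists, Neurod2 in 3 and Neurod6 in 0, so presence of a peak alone separated the regions little. Of the markers of other cells, the endothelial gene Cldn5 had a peak in 4 lists, the fibroblast gene Col1a1 in 3, and the microglial gene Cx3cr1 and the globin gene Hbb-bt in 0.

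The genes carry short sequence elements that the names do not use. The stem-loop at the end of histone mRNAs is bound by the stem-loop binding protein and directs cleavage of the transcript. The pattern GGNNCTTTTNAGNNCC, searched on the sense strand in the 150 bases after the coding sequence, was found in 60 of 67 members and in 3 of 21871 other protein-coding genes (H2afx, H2bfm and Lrrc75b). It was found in 6 of 6 H1, 17 of 18 H2A, 14 of 18 H2B, 11 of 12 H3 and 12 of 13 H4 genes. Its forms are shown because they set the H4 genes apart from the other types, with the arms of the stem in capitals and the loop in lower case:
stem-loop of 38 H1, H2A, H2B and H3 genes: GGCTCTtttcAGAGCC
stem-loop of 9 H1, H2A, H2B and H3 genes: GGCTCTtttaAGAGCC
stem-loop of 1 H2A gene: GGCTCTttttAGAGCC
stem-loop of 8 H4 genes: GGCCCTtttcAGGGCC
stem-loop of 2 H4 genes: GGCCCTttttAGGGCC
stem-loop of 2 H4 genes, other arms: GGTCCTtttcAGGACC

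In each of the 6 forms the 6 bases of the first arm were the reverse complement of those of the second. No form was shared between H4 and any other type. The 7 genes without a match were Hist1h2an, Hist1h2bp, Hist1h2bq, Hist1h2br, Hist1h3g, Hist1h4a and Hist2h2be. A missing match says only that these letters do not occur in the window searched.

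Promoters were read from RefSeq (GRCm38.p6), as windows from 250 bases before to 50 bases after each start, for the 62 members with an entry. Searched on both strands, the CCAAT box (CCAAT) occurred in 85.5% of members (53 of 62) and in 41.1% of all 27025 genes with a window. It was present in all 6 H1, 18 H2A, 16 H2B and 10 H3 genes with a window, and in 3 of 12 H4 genes. The TATA box (TATAAA) occurred in 56.5% of members against 15.7% of all genes. The octamer (ATTTGCAT), a binding site of the POU factor encoded by Pou2f1 and a known element of H2B promoters, occurred in 7 of 16 H2B and 7 of 18 H2A genes, in no H1, H3 or H4 gene, and in 1.97% of all genes. The H1 box (AAACACA) occurred in 5 of 6 H1 genes, in 4 of the 56 other members and in 8.22% of all genes. No matches of different motifs overlapped in these windows.

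The stretches that follow are shown because the results below turn on them. The stretch between the starts of Hist1h2ae and Hist1h2bg, an H2A and an H2B gene transcribed away from each other, lay under a peak in every list, and that between Hist2h2ac and Hist2h2be in none. Among H1 genes, Hist1h1c was covered in every list, Hist1h1b had no peak, and the testis gene Hist1h1t had no peak over its start. Hist4h4 is an H4 gene outside the large clusters that was covered in every list. Sequences are from GRCm38, capitals mark the motifs on either strand, and coordinates and strands are given after the names:
Hist1h2ae to Hist1h2bg, chr13:23571221-23571395, plus strand: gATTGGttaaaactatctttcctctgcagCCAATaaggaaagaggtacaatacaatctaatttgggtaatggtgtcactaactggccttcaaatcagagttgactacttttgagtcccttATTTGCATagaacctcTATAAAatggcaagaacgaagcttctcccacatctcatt
Hist2h2ac to Hist2h2be, chr3:96220881-96221118, plus strand: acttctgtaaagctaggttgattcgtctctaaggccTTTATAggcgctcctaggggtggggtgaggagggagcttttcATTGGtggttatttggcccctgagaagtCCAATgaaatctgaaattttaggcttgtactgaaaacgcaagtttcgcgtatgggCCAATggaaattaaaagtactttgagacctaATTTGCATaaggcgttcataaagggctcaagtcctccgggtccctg
Hist1h1c, chr13:23738557-23738806, plus strand: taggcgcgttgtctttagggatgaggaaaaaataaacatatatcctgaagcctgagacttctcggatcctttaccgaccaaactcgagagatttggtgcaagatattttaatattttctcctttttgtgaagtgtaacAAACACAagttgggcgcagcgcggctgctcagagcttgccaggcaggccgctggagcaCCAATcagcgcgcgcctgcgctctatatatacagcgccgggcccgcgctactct
Hist1h1b, chr13:21780626-21780875, minus strand: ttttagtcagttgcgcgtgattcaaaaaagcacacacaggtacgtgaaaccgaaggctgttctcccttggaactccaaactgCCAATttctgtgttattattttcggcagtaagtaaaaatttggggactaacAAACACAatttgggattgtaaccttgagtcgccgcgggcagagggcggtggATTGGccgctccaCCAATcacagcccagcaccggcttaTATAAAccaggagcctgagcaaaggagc
Hist1h1t, chr13:23695561-23695810, plus strand: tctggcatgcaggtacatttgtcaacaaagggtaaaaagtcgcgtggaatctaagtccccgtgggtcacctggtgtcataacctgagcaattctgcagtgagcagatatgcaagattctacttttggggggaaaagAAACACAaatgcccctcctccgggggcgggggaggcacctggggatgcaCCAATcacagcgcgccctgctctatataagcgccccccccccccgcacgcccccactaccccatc
Hist4h4, chr6:136804432-136804531, minus strand: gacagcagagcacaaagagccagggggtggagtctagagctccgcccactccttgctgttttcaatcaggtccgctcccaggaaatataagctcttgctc

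The pair with a peak and the pair without both held a TATA box, CCAAT boxes and an octamer between their starts. The 3 H1 promoters shared an H1 box and a CCAAT box, and the Hist4h4 stretch held none of the 4 motifs. Over all members with a window, the CCAAT box occurred in 31 of 38 genes marked in all 4 lists and in 20 of 22 marked in none, and the TATA box in 21 and 13, with overlapping intervals for both motifs. The median ratio of observed to expected CpG in the window was 0.715 in genes marked in all lists, 0.813 in genes marked in none and 0.389 over all genes with a window.

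Next, the share of histone genes with a peak was compared between regions. A gene was called marked when a peak touched the 2 kb either side of any of its transcription start sites (TSSs). In MGE, LGE and CGE, 41 of 67 members were marked (61.2%, Wilson 95% interval 49.2 to 72.0%), and in CTX 43 (64.2%, 52.2 to 74.6%). Among all protein-coding genes the percentages were 62.2, 62.3, 62.7 and 61.5, inside the members' intervals. The 41 genes marked in the ganglionic eminences were marked in all 4 lists, against 59.4% of protein-coding genes, and 24 members (35.8%, 25.4 to 47.8%) were marked in none, against 35%. The histone genes as a group therefore had a peak about as often as other genes, and only Hist1h2be and Hist1h1e differed between lists.

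A peak contained a TSS of 38 members in MGE, LGE and CTX and of 39 in CGE (58.2%), against 57.2%, 59%, 59.8% and 57% of protein-coding genes. By this stricter rule 37 members were covered in all 4 lists and 28 in none. The members with a differing count were Hist1h2af, an H2A gene covered in all lists but LGE, and Hist1h3f, an H3 gene covered in LGE and CGE. In MGE and CTX the nearest peak lay 207 bp and 211 bp from the start of Hist1h3f.

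**Figure D1:**
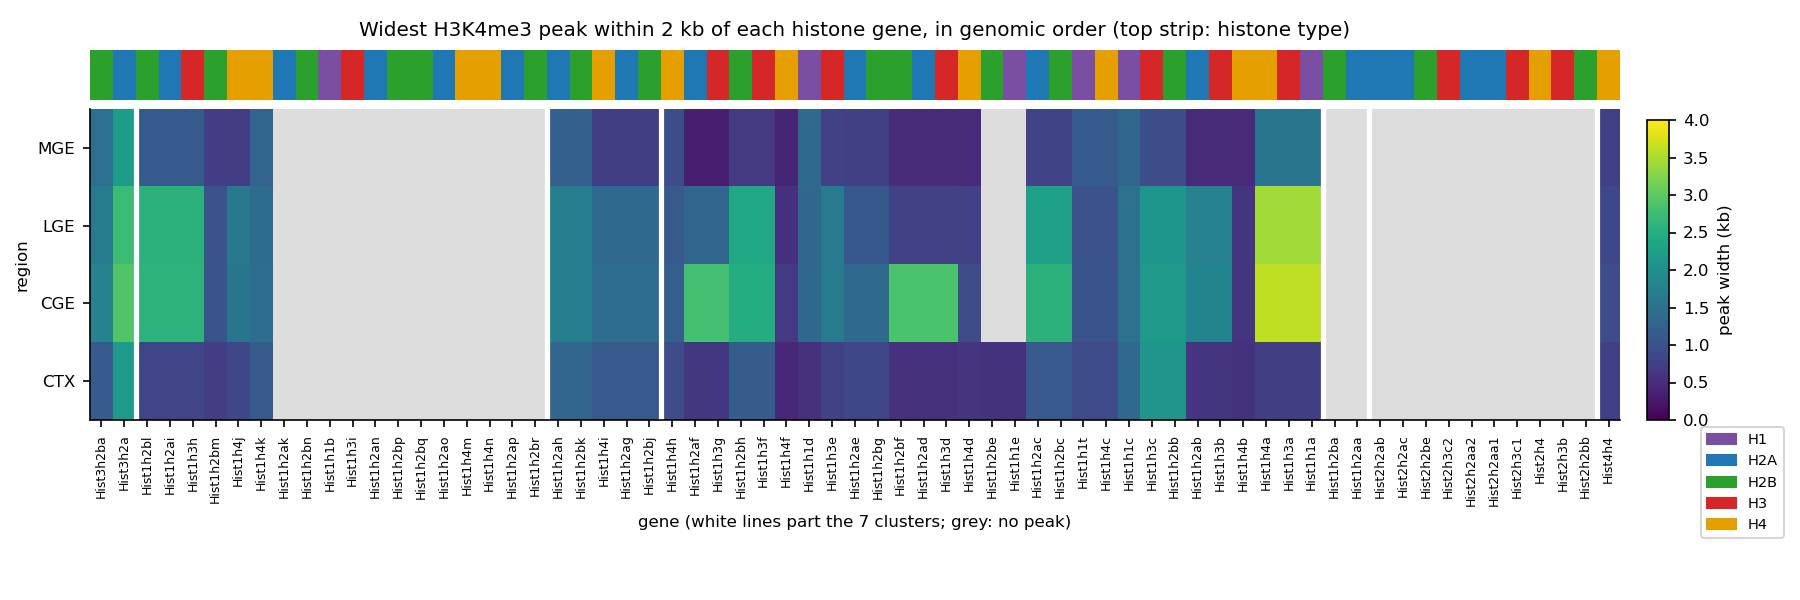
The colour gives the width in kb of the widest H3K4me3 peak within 2 kb of each of the 67 histone genes (columns, in genomic order within 7 clusters parted by white lines) in each region (rows), with grey for no peak and a top strip for the histone type. Within clusters, grey columns form unbroken blocks of 12 and 10 neighbouring genes, and the LGE and CGE rows hold the wide peaks.

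By histone type, 50% of H2A genes (9 of 18, 29.0 to 71.0%) and 76.9% of H4 genes (10 of 13, 49.7 to 91.8%) were marked, with the same counts in every list. Of H3 genes, 8 of 12 were marked in each list (66.7%, 39.1 to 86.2%). Of H2B genes, 10 of 18 were marked in MGE, LGE and CGE and 11 in CTX. Of H1 genes, 4 of 6 were marked in MGE, LGE and CGE and 5 in CTX (83.3%, with an interval from 43.6%), but a peak contained the start of only 2, Hist1h1a and Hist1h1c. The intervals of all 5 types overlapped, so no order among them could be told at these numbers of genes.

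**Figure D2:**
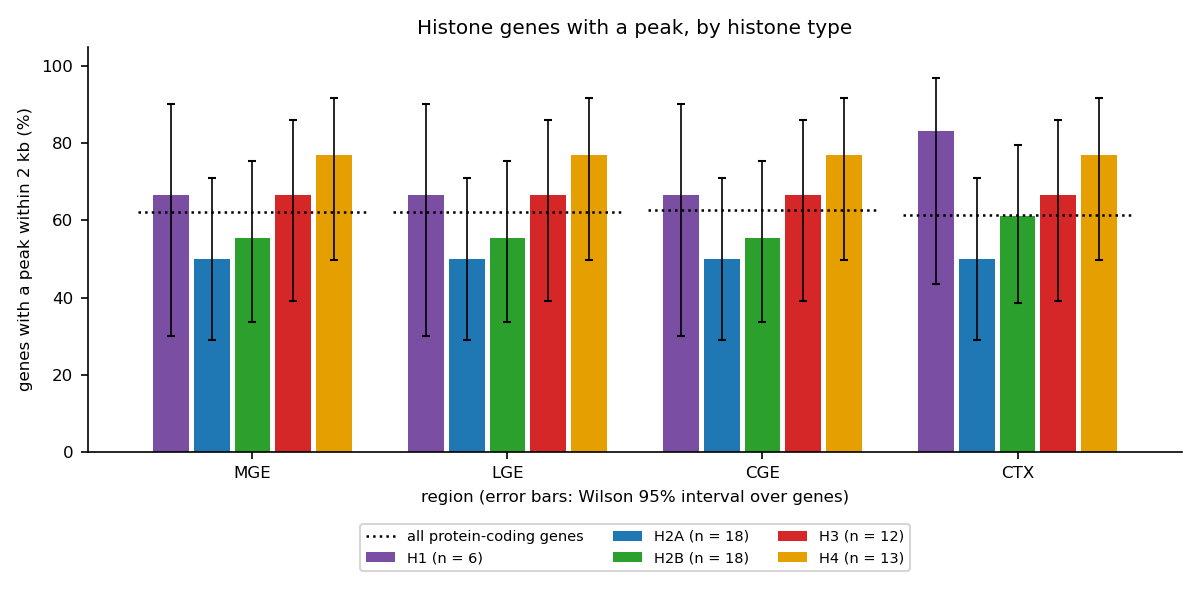
Bars give the percentage of genes of each histone type with a peak within 2 kb in each region, error bars the Wilson 95% interval over genes, and dotted lines the percentage over all protein-coding genes. The intervals of all types overlap, with H2A lowest at 50% and H4 at 76.9% in every list.

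The unmarked genes lay together in the genome. Genes whose 5′ ends lay less than 100 kb apart were chained into 7 clusters. The largest, 29 genes over 233 kb of chromosome 13 from Hist1h4h to Hist1h1a, had 27 genes marked in all 4 lists. A cluster of 5 on the same chromosome, from Hist1h2ah to Hist1h2bj, was marked throughout, as were Hist3h2ba and Hist3h2a on chromosome 11 and Hist4h4 on chromosome 6. All 24 genes without any peak lay in 3 unbroken runs.

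The first run comprised 12 neighbouring genes of chromosome 13, with 5′ ends from 21753827 (Hist1h2ak) to 21833743 (Hist1h2br). In order these were Hist1h2ak, Hist1h2bn, Hist1h1b, Hist1h3i, Hist1h2an, Hist1h2bp, Hist1h2bq, Hist1h2ao, Hist1h4m, Hist1h4n, Hist1h2ap and Hist1h2br. The stretch that no list covered ran for 104 kb, from 21750866 to 21855265, and held no other protein-coding gene start. It opened just past the peak of Hist1h4k, whose widths were 1310, 1408, 1440 and 1132 bp, so the edge between the marked and the unmarked part of this cluster fell between the same genes in every list.

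The second run was the whole Hist2 cluster of chromosome 3, with 10 genes: Hist2h2ab, Hist2h2ac, Hist2h2be, Hist2h3c2, Hist2h2aa2, Hist2h2aa1, Hist2h3c1, Hist2h4, Hist2h3b and Hist2h2bb. The uncovered stretch measured 109 kb, from 96182830 to 96292145, and also held the start of Bola1, a gene of iron-sulfur cluster metabolism that is no histone gene. The third was the divergent pair Hist1h2ba and Hist1h2aa, which encode testis forms of H2B and H2A, in a stretch of 177 kb with 4 sodium-phosphate transporter genes (Slc17a1, Slc17a2, Slc17a3 and Slc17a4). The nearest peak lay between 2.96 kb and 170 kb from the unmarked genes over all lists.

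The peaks of each list carry running numbers. No number was missing from any of these 3 stretches in any list, so no peak between the flanking ones is absent from the lists used here. The authors removed reads in blacklisted regions before peak calling, and whether these stretches lie in such a region was not tested. Part of the sequence is repeated: the share of 50-base words around a start (2 kb either side) that occur elsewhere in the genome was 98.7% at Hist1h2bq and Hist1h2br, 95.7% at Hist1h4m and 55.7% at Hist2h2aa2. It was 0.709% at Hist1h1b and 0.405% at Hist2h4, which also had no peak. The median was 30.4% over the 24 genes without a peak and 26.5% over the 41 marked in all lists, which reached 46.2%. Pairs of genes of the same type with near-identical promoters, which shared at least 50% of their 50-base words, were Hist1h2bq and Hist1h2br, Hist1h2ao and Hist1h2ap, Hist1h4m and Hist1h4n, Hist2h3c2 and Hist2h3c1, and Hist2h2aa2 and Hist2h2aa1. All of them lay in these stretches, and reads from such copies cannot be assigned to a single gene with certainty.

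**Figure D3:**
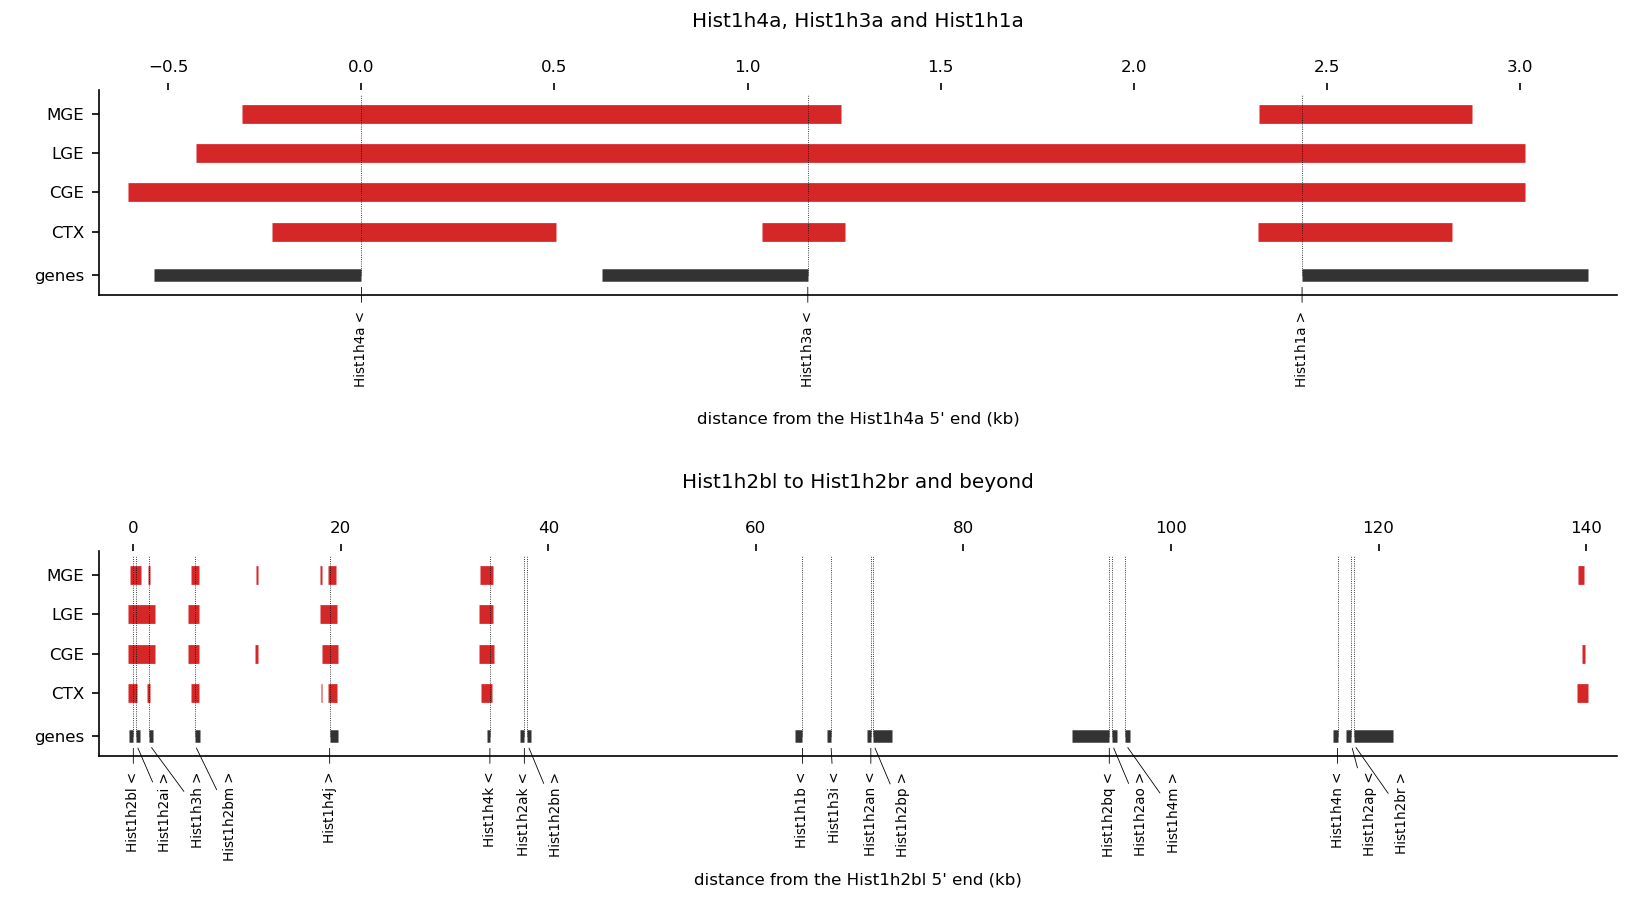
Red bars are H3K4me3 peaks in the 4 lists and dark bars genes, with arrowheads for the direction of transcription and distances in kb from the 5′ end of Hist1h4a (top) or Hist1h2bl (bottom). At the top, single peaks of 3443 bp (LGE) and 3618 bp (CGE) span 3 gene starts that 2 peaks cover in MGE and 3 in CTX, and at the bottom no list has a peak over the 12 genes from Hist1h2ak to Hist1h2br.

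The linker histone genes showed how much the annotated start matters. Hist1h1e and Hist1h2be were marked in CTX only, through a peak of 585 bp with 3.79-fold enrichment (the authors' ratio of reads to the local background) and a −log10 q of 2.26, the lowest among members in that list. That peak contained the start of neither gene and lay 1772 bp from that of Hist1h1e. In MGE, LGE and CGE the nearest peak to Hist1h1e was 11146 bp, 36429 bp and 36447 bp away. In CGE alone, 1 running number was missing between the peaks that flank both genes, so a peak there could be absent from the list used here. RefSeq gives Hist1h2be a second start 35154 bp from its GENCODE 5′ end at 23621124, and a peak covered that start in all 4 lists. RefSeq likewise places the start of Hist1h1d 1770 bp downstream of the GENCODE one, inside a peak in every list, with widths of 1371, 1324, 1353 and 573 bp.

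None of the 3 testis variants had a peak over its start in any list. Hist1h2aa and Hist1h2ba had no peak within 2 kb. Hist1h1t, which encodes the testis linker histone, counted as marked only because the peak of its neighbour Hist1h4c reached to within 1707, 1754, 1813 and 1980 bp of its start. These distances lie just inside the limit of 2 kb, and a window of 1 kb leaves Hist1h1t unmarked.

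Then the width of the peaks was examined. The widest peak at a marked member had a median of 771 bp in MGE (41 genes, order-statistic 95% interval 722 to 1137 bp) and of 834 bp in CTX (43 genes, 738 to 1110 bp). The medians were larger in LGE, with 1501 bp (41 genes, 1305 to 1777 bp), and in CGE, with 1775 bp (41 genes, 1434 to 2574 bp). Over all marked protein-coding genes the medians were 972, 1332, 1418 and 1016 bp. The ratio of the members' median to that of all genes was 0.793, 1.13, 1.25 and 0.821. Only in CGE did the all-gene median lie outside the members' interval, just below it, and in the other lists no difference in width from other genes could be told at this number of genes.

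The LGE and CGE peaks were both wider than the MGE and CTX peaks at 38 of the 41 members marked in all lists. The same held at 89.5% of the 13034 protein-coding genes marked in all lists, so that order belongs to the lists as a whole. The spread among members was larger in the wide lists. Peaks of 2 kb or more lay at 31.7% of marked members in LGE (13 genes) and 43.9% in CGE (18 genes), against 14.7% and 18.3% of marked protein-coding genes. In MGE and CTX the shares were 2.44% and 6.98%, against 4.09% and 5.08%. A wide peak shared by neighbours counts once per gene in these shares. With each peak within 2 kb counted once, median widths at members were 719, 1371, 1534 and 708.5 bp. At protein-coding genes they were 878, 1278, 1363 and 932 bp.

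**Figure D4:**
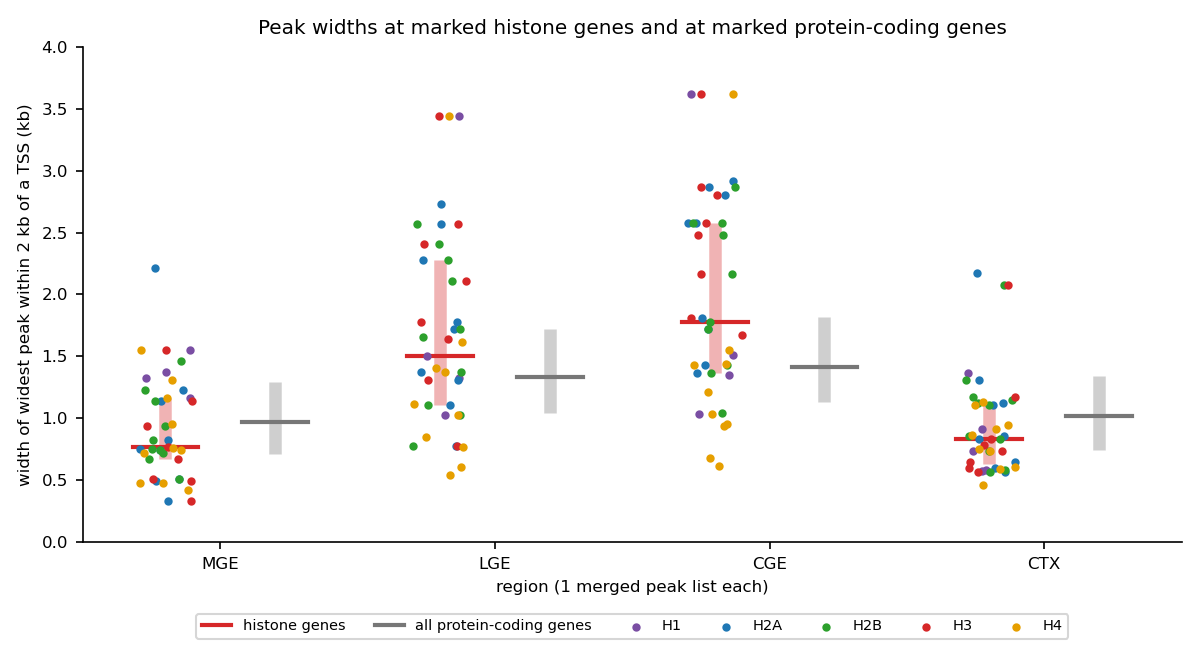
Points give the width in kb of the widest peak within 2 kb of each marked histone gene, coloured by type, in each region. Horizontal lines are medians and pale bars the middle 50% of genes, for histone genes (red) and all marked protein-coding genes (grey). The members' median was 771 against 972 bp in MGE and 1775 against 1418 bp in CGE, and only the CGE interval leaves out the median of all genes.

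By type, H4 genes had peaks with medians of 752, 1071, 1124.5 and 808.5 bp (10 genes each). Median widths at H3 genes were 722, 1941, 2529.5 and 761 bp (8 genes), and at H2A genes 755, 1725, 2574 and 855 bp (9 genes). At H2B genes they were 789.5, 1691.5 and 1971.5 bp (10 genes) and 1110 bp in CTX (11 genes), and at H1 genes 1348, 1412.5 and 1433 bp (4 genes) and 738 bp in CTX (5 genes). H4 genes had the lowest median in LGE and CGE, H3 genes in MGE and H1 genes in CTX. The genes of the wide peaks shared them with neighbours, so these medians rest on fewer peaks than genes. The H1 medians also include peaks that miss the H1 start. For Hist1h1t the peak is that of Hist1h4c in every list. For Hist1h1a it is a neighbours' peak of 1551 bp in MGE and 738 bp in CTX, where the peak over its own start had 553 and 502 bp.

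Hist3h2a had the widest peak of all members in MGE (2212 bp) and CTX (2170 bp), with 2731 bp in LGE and 2918 bp in CGE. In each list its width exceeded that of at least 97.1% of peaks. Its fold enrichment was low for the lists, at 4.20, 3.14, 3.49 and 4.61, which lay at percentiles 42.8, 7.04, 18.5 and 41.6. Hist3h2ba, its H2B neighbour 5.77 kb away, had a peak of its own of 1460, 1658, 1775 and 1151 bp. Hist4h4, alone on chromosome 6, had 759, 850, 950 and 754 bp. Among the widest peaks of each marked member, the smallest in LGE and CTX was that of Hist1h4f (544 bp and 461 bp), and in CGE that of Hist1h4b (618 bp).

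Several peaks spanned more than 1 histone gene. The distinct peaks within 2 kb of members numbered 35, 27, 26 and 36. Of these, 7, 10, 11 and 7 contained the TSSs of 2 or more members. In terms of genes, 15 members in MGE and 15 in CTX (22.4%, 14.1 to 33.7%), 23 in LGE (34.3%, 24.1 to 46.3%) and 26 in CGE (38.8%, 28.0 to 50.8%) had a TSS under a peak that also held a TSS of another protein-coding gene. Over all protein-coding genes the percentages were 11.4, 11.9, 12.1 and 11.5, below the members' interval in each list. The share was thus higher among members in each list, and the members' intervals overlapped between all 4 lists. A peak shared by members adds 2 or more of them at once, so these intervals are too narrow, and no test was made. By peaks, 7 of 31, 10 of 26, 11 of 25 and 7 of 31 over a member TSS held TSSs of 2 or more members. Of peaks over any protein-coding TSS, 10.1, 10.3, 10.3 and 10.3% held those of 2 or more genes.

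At 3 loci a single peak held 3 gene starts. Hist1h4a, Hist1h3a and Hist1h1a, an H4, an H3 and an H1 gene, lay under 1 peak in LGE (3443 bp) and in CGE (3618 bp), under 2 in MGE (1551 and 553 bp) and under 3 in CTX (738, 217 and 502 bp). Hist1h2bl, Hist1h2ai and Hist1h3h lay under 1 peak in LGE (2571 bp) and in CGE (2580 bp), and under 2 peaks in MGE (1137 and 192 bp) and CTX (834 and 225 bp). Hist1h2bf, Hist1h2ad and Hist1h3d shared a peak of 2871 bp in CGE only, and had 2 in MGE (506 and 509 bp), LGE (773 and 676 bp) and CTX (567 and 506 bp). At each of these loci the same starts were covered in all 4 lists, and what differed was whether the bases between them were. In LGE and CGE no peak contained the starts of more than 3 members, and in MGE and CTX none contained more than 2.

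The fragmentation showed in the number of peaks near a gene as well. In MGE 23 members (34.3%, 24.1 to 46.3%) and in CTX 21 (31.3%, 21.5 to 43.2%) had 2 or more peaks within 2 kb, against 10.1% and 8.81% of protein-coding genes. In LGE 7 members and in CGE 5 did (10.4% and 7.46%, 5.15 to 20.0% and 3.23 to 16.3%), against 5.8% and 6.15%, which lie inside the members' intervals. In a dense cluster these counts include peaks over neighbouring genes.

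Histone genes are often arranged head to head. In all, 13 pairs were transcribed away from each other with 5′ ends at most 1 kb apart, 12 of an H2A and an H2B gene and 1 of an H2B and an H3 gene (Hist1h2bh and Hist1h3f). The distance between starts ran from 176 bp to 660 bp, with a median of 268 bp. In 6 pairs, all H2A with H2B, a single peak covered both starts in all 4 lists, and 6 pairs lay in the stretches without peaks. The remaining pair, Hist1h2bh and Hist1h3f, was covered by 1 peak in LGE (2404 bp) and in CGE (2479 bp), and by no single peak in MGE or CTX. Every H2A and H2B pair with a peak thus had both starts under 1 peak in every list. The starts of these pairs lay 176 to 302 bp apart and their peaks were at least 506 bp wide. A peak over one start would therefore often reach the other. The share over divergent pairs of other protein-coding genes was not computed, so this is not shown to be particular to histone genes.

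The pair with the shortest distance, Hist1h2ae and Hist1h2bg (176 bp), whose shared stretch is printed above, had peaks of 755, 1106, 1364 and 855 bp. Hist1h2bf and Hist1h2ad (185 bp apart) had 506, 773, 2871 and 567 bp, and the CGE value includes Hist1h3d. The third shortest pair, Hist1h2ap and Hist1h2br (236 bp), had no peak.

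The position of the covered bases around gene starts was compared with that at other genes. At the 5′ end itself, 56.7, 56.7, 58.2 and 56.7% of members were covered, against 49.5, 51.8, 53.0 and 49.4% of protein-coding genes. This gap depends on the anchor, since only the outermost 5′ end is used and 63 of 67 members have a single TSS. With any TSS of a gene counted, protein-coding genes stood at 57.2, 59, 59.8 and 57%, and the members' percentages did not change. The part of the anchor in the values at other distances was not tested. At 500 bp downstream the members stood at 17.9, 41.8, 50.7 and 22.4%, and protein-coding genes at 38.2, 50.5, 52.0 and 39.7%. At 500 bp upstream the order was turned, with 17.9%, 35.8%, 41.8% and 17.9% of members against 11.7%, 18.4%, 20.6% and 12.4% of protein-coding genes. At 1 kb upstream 25.4% of members were still covered in CGE, against 4.90% of protein-coding genes.

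At 500 bp from the start, the usual shape of an H3K4me3 peak, extending into the gene, was therefore less one-sided at histone genes. Nearer the start, members in MGE were covered more often downstream (40.3% at 300 bp) than upstream (25.4% at 300 bp). Divergent pairs and other members differed in how one-sided the coverage was. In MGE, 8 of 26 genes in a divergent pair were covered 500 bp upstream and 2 of 26 at 500 bp downstream, whereas among the 41 other members the counts were 4 and 10. In CGE the counts were 14 and 12 of 26, and 14 and 22 of 41. No test was made of these counts, since partners of a pair share their peak.

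**Figure D5:**
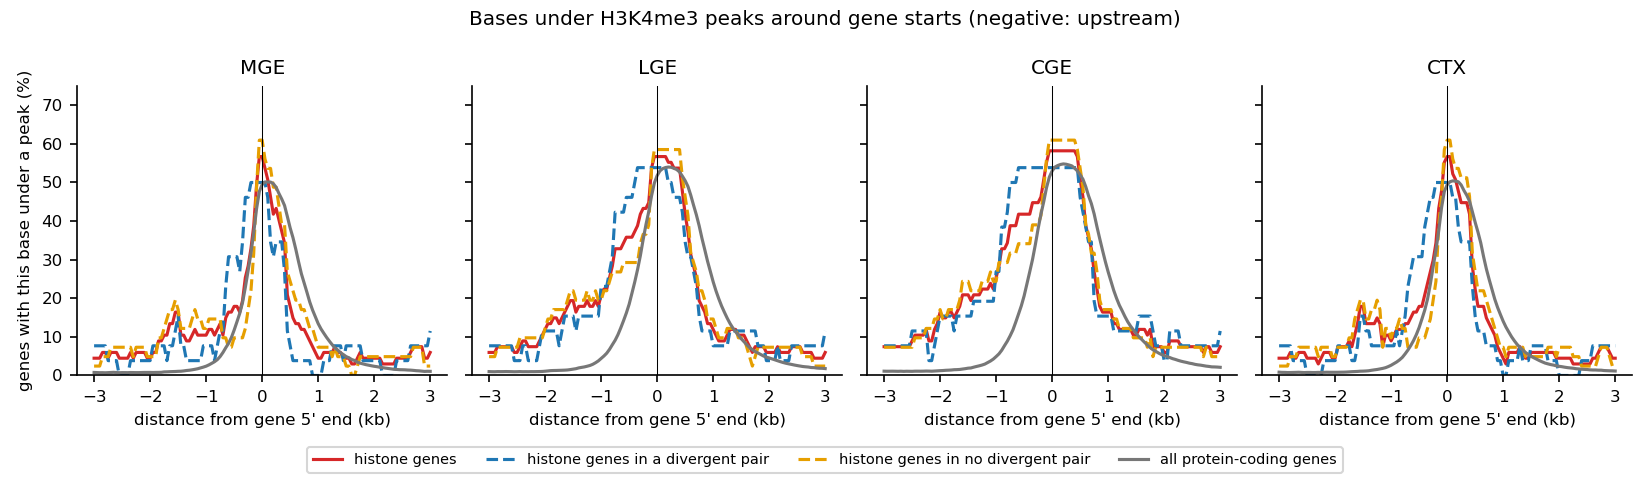
Lines give the percentage of genes with a base under a peak at each distance in kb from the gene 5′ end (negative is upstream), for all 67 histone genes, those in and not in a divergent pair, and all protein-coding genes, in each region. Protein-coding genes are covered mostly downstream of the start (38.2% at 500 bp downstream and 11.7% at 500 bp upstream in MGE). Histone genes in MGE are covered equally at 500 bp on both sides (17.9% and 17.9%), but at 300 bp more often downstream (40.3%) than upstream (25.4%).

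Histone genes are short, with a median annotated span of 539 bp against 17403 bp over all protein-coding genes, and peaks can cover them whole. The entire span lay under 1 peak for 17 members in LGE (25.4%, 16.5 to 36.9%) and 22 in CGE (32.8%, 22.8 to 44.7%), and for 7 in MGE (10.4%, 5.15 to 20.0%) and 6 in CTX (8.96%, 4.17 to 18.2%). The percentages over all protein-coding genes were 0.164, 0.351, 0.415 and 0.173, and only 3.31% of protein-coding genes span 1 kb or less, against 71.6% of members. The part of gene length in this difference was not tested. Hist3h2ba, Hist1h4k, Hist1h2ah and Hist1h4h were covered whole in all 4 lists.

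Fold enrichment did not follow width. The highest fold enrichment of a peak at a marked member had a median of 6.12, 3.80, 3.90 and 5.23, against 6.41, 6.25, 6.64 and 6.56 over marked protein-coding genes. Expressed as the percentile of each value within its own list, the medians were 71.0, 18.1, 24.2 and 52.4, against 73.9, 60.5, 62.0 and 70.0. Peaks at histone genes thus ranked low in fold in LGE and CGE and close to other genes in MGE, a description without a test. In LGE and CGE the median percentiles were 14.2 and 24.4 for peaks over the start of 1 member and 22.8 and 24.2 for peaks over 2 or more. The caller averages fold over the length of a peak, and the part of width in these ranks was not tested.

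The 2 highest folds of each list were found at peaks over the start of 1 member. In MGE they were 7.58 at a peak over Hist1h3b and 7.18 at Hist1h3e. In LGE the peak of Hist1h4c had 6.86 and that of Hist1h4k 5.94. In CGE Hist1h3e had 7.97 and Hist1h4c 7.92, and in CTX Hist1h4c had 7.37 and Hist1h3b 7.06. All of these encode H3 or H4. The third highest in MGE, 7.14, was at a peak over the starts of the H2A gene Hist1h2ac and the H2B gene Hist1h2bc. In the other lists the third highest was at an H3 or H4 gene. The highest fold of any peak within 2 kb of a marked member was lowest for Hist1h4b in every list, with 2.84, 2.76, 2.71 and 3.17, although its start was covered in all 4. Its −log10 q was 1.78 in MGE, the only value under 2 in that list when the highest per member is taken, and 7.04, 14.7 and 4.28 in LGE, CGE and CTX.

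Histone genes outside the replication-dependent naming, called replication-independent here, and genes that act on histone transcription or mRNA were read in the same way. Of the former, H2afx and H2bfm held the stem-loop pattern, as given above, which goes against that name for both. Of 16 replication-independent genes, 10 were marked in all 4 lists and 6 in none, near the 59.4% of all protein-coding genes marked in all 4. The marked ones included H3f3a and H3f3b, which encode the variant H3.3, the H2A variants H2afz, H2afv, H2afy, H2afy2 and H2afj, the centromeric Cenpa, and the linker genes H1f0 and H1fx. H3f3a had peaks of 2001, 2904, 2889 and 2100 bp, and H1f0 of 1301, 3378, 3449 and 605 bp. The 6 without a peak were the germ-cell linker genes H1fnt, H1foo and Hils1, the variants H2afb1 and H2bfm, and H2afx, which encodes the variant phosphorylated at DNA breaks.

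Of 20 genes of histone transcription and mRNA processing, 18 were marked in all 4 lists, where the share over all protein-coding genes was 59.4%. Npat, the coactivator of histone genes downstream of cyclin E and Cdk2, had peaks of 1222, 1598, 1799 and 1112 bp. Slbp, which encodes the stem-loop binding protein, had 1445, 1597, 1597 and 968 bp. Cdk2, Ccne1, Ccne2, E2f1, Casp8ap2, Lsm10, Lsm11 and Pou2f1 were among the others marked in every list. Hinfp, a factor of H4 promoters, and Xrn2, an exonuclease, had no peak. H2afx and Hinfp lay in the same uncovered stretch of chromosome 9, of 120 to 129 kb, from which 1 or 2 running numbers were missing in each list, and 1 number was missing around Xrn2 in each list, so peaks at these 3 genes could be absent from the lists used here.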

How the data were processed

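H3K4me3 CUT&Tag peak lists of 4 regions were analysed. Per the study's methods, the authors aligned reads with Bowtie2 to GRCm38/mm10, removed blacklisted regions and, with Picard, duplicates, merged the replicates of a region with SAMtools and called broad peaks with MACS. The MACS threshold and version are not given in the sources used here. The deposited columns are peak positions, a score (10 times −log10 q, cut to whole numbers), the fold over the local background (a ratio), and −log10 p and −log10 q. The −log10 p and the score were not used further. The paper gives the read depth of each replicate, with both CGE replicates deeper than either MGE replicate and both LGE replicates less deep than the second CTX replicate. The number of reads behind a single peak is not among the deposited columns, so the precision of its edges could not be computed.

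Peaks were read as 1-based intervals and tested for overlap with pandas 2.3.3 and numpy 2.4.6 under Python 3.11.15, scipy 1.17.1 gave the intervals, and matplotlib 3.10.9 served for plotting. Members, every TSS and gene spans came from GENCODE M21, and promoter windows from RefSeq. The members and gene lists were chosen with earlier results of these data known. Genes named were members with a peak in fewer than 4 lists, the testis variants, members under the 3 widest peaks, under the peak with most member TSSs or with the 3 highest folds in each list, members outside the largest cluster, the 3 shortest divergent pairs, near-identical pairs, and genes of the other lists with a peak in fewer than 4 lists. Hist1h4f, Hist1h4b, Hist1h3f, Hist1h2af, Hist1h1d, the genes covered whole in all lists and the marked genes of the other lists were named after their values were seen. Shares have Wilson 95% intervals and medians exact binomial order-statistic intervals. Overlap counting was checked on simulated peaks. Alternatives were other windows, TSSs, peak thresholds, list sizes, joins, overlaps and member sets.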

Additional observations from a re-analysis of the deposited data

How the results depend on the processing

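Of 140 recomputed values, 136 stayed within the interval or 1.5-fold limit of the reported ones. The share of members marked ran from 56.7% to 69.4% and the number marked in all 4 lists from 37 to 43 over all alternatives run: windows of 1 kb, 500 bp or 2 kb upstream, the 5′ end only, a −log10 q of at least 2, equal lists of 17284 peaks, joined peaks, a peak over the TSS, at least 50% of a peak in the window, 70 genes of any biotype, 62 genes with copies counted once and, chosen after seeing the data, RefSeq starts of 62 members. Joining peaks less than 1 kb apart moved the median width to 1231 bp in MGE and 1120 bp in CTX. Counting peaks within 2 kb of 2 or more members, in place of those over their TSSs, gave 22 in MGE and 22 in CTX. It gave 15 in LGE and 15 in CGE, so the order of the lists was turned. With peaks joined, those over the TSSs of several members numbered 10, 10, 11 and 10 in the order MGE, LGE, CGE, CTX. The reported counts were 7, 10, 11 and 7, so the difference between lists almost vanished although each value stayed within its limit. The other alternatives moved no width or count of shared peaks beyond its limit. No paired analysis was possible because each region has 1 list, called on merged reads, and for the same reason no replicate could be left out.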

Other observations

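Genes with these names that are annotated as pseudogenes had peaks too. The start of Hist1h2aj on chromosome 13 lay under a peak in all 4 lists (722, 1027, 1044 and 734 bp in the order MGE, LGE, CGE, CTX), the same peak that covers the H2B gene Hist1h2bm. The start of Hist3h2bb-ps on chromosome 11 lay under the wide peak of Hist3h2a in all 4 lists (2212 to 2918 bp). Hist1h2al, apart from the clusters on chromosome 13, had a peak of 481 bp in CGE and none in the other lists.

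Over whole lists, 33, 59, 64 and 31 running peak numbers were missing in the same order, so a small part of each list was not analysed here.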
